A study of Drosophila melanogaster with 48 samples.

Results

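Transcript levels of 10 glycolytic enzyme genes, Pfk, Ald1, Tpi, Gapdh1, Gapdh2, Pgk, Pglym78, Eno, PyK and Ldh (ImpL3 in older annotation), were followed through Drosophila melanogaster embryonic neurogenesis in sorted cells. The 10 genes were taken from a list of named enzymes, out of 17257 annotated genes, and all 10 passed the filter on low counts. Members were chosen with earlier results of these data known, so shares over all genes are background and not an independent test. The study sorted formaldehyde-fixed, immunostained cells of dissociated embryos by FACS into marker-positive and marker-negative fractions and sequenced ribosome-depleted RNA. It comprised 48 libraries in 24 groups of 2 replicates. Elav (neurons) and Repo (glia) sorts were made at 6-8 h, 8-10 h and 18-22 h after egg laying (AEL), and Ind (intermediate column), Vnd (ventral column) and Pros (neuroblasts and ganglion mother cells) sorts at 4-6 h and 6-8 h.

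Glycolysis splits glucose into pyruvate in the cytosol and yields ATP and NADH. Lactate dehydrogenase turns pyruvate into lactate and restores NAD+, which lets the pathway run without respiration. In Drosophila embryos the enzymes of the pathway are known to be induced together in mid-embryogenesis under the nuclear receptor ERR, and in adult fly brains glia are known for a strongly glycolytic metabolism and for passing its products to neurons.

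All embryos carried a yellow-white (y w) background and were untreated. The 4-6 h Ind cells came from the ind_1.4::dsRed line and the 6-8 h Ind cells, the 6-8 h Repo cells and replicate 1 of the 6-8 h Elav cells from ind_1.4::GFP. Replicate 2 of the 6-8 h Elav cells and the 8-10 h Elav cells came from yw flies without a reporter, and the Vnd cells from vnd_743::dsRed. The Pros cells, the 8-10 h and 18-22 h Repo cells and the 18-22 h Elav cells came from the vnd-lexA/VC:FNLDD line. The Ind and Vnd fractions were defined by an enhancer reporter and so hold the cells in which the enhancer fragment and its reporter protein were present, whereas Pros, Elav and Repo were stained as endogenous proteins. Line and time cannot be told apart in the Elav and Ind series, while Vnd and Pros kept the same line throughout and Repo from 8-10 h on.

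Libraries held 18120862 to 113452420 assigned reads. The sorting markers followed the labels: elav was higher by a log2 fold change of 1.77 to 2.80, and repo had log2 fold changes of -4.76 to -3.67, in Elav-pos over Repo-pos cells at the 3 ages. In that comparison 6 of 7 neuron markers were higher and 7 of 7 glia markers lower at each age. Each cell type held markers of the other. Summed glia markers were at 420 to 440 TPM in 18-22 h Elav-pos cells, against 7020 to 9265 TPM in 18-22 h Repo-pos cells, and summed neuron markers at 5705 to 5837 TPM in 18-22 h Elav-pos cells, against 1052 to 1184 TPM in 18-22 h Repo-pos cells. Of 6 gut and tracheal markers trh and fkh, and of 4 neuroblast markers ase, were higher in Elav-pos than in Repo-pos cells at 6-8 h and 8-10 h. The study's methods describe the replicates as biological duplicates.

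The genes lie on chromosomes 2L (Pgk and Eno), 2R (Pfk and Gapdh1), 3L (Ldh), 3R (Ald1, Tpi, Pglym78 and PyK) and X (Gapdh2) and have between 2 (Gapdh1, Gapdh2, PyK) and 10 (Ald1) annotated transcripts, 42 in all. Gapdh1 and Gapdh2 are near-identical copies, and Pglym78 has a close copy in Pglym87, so that the division of reads among them is uncertain. Exons of Ald1, Pgk, Pglym78 and Eno overlap those of a gene on the opposite strand, for which the stranded counting was used.

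**Figure D1:**
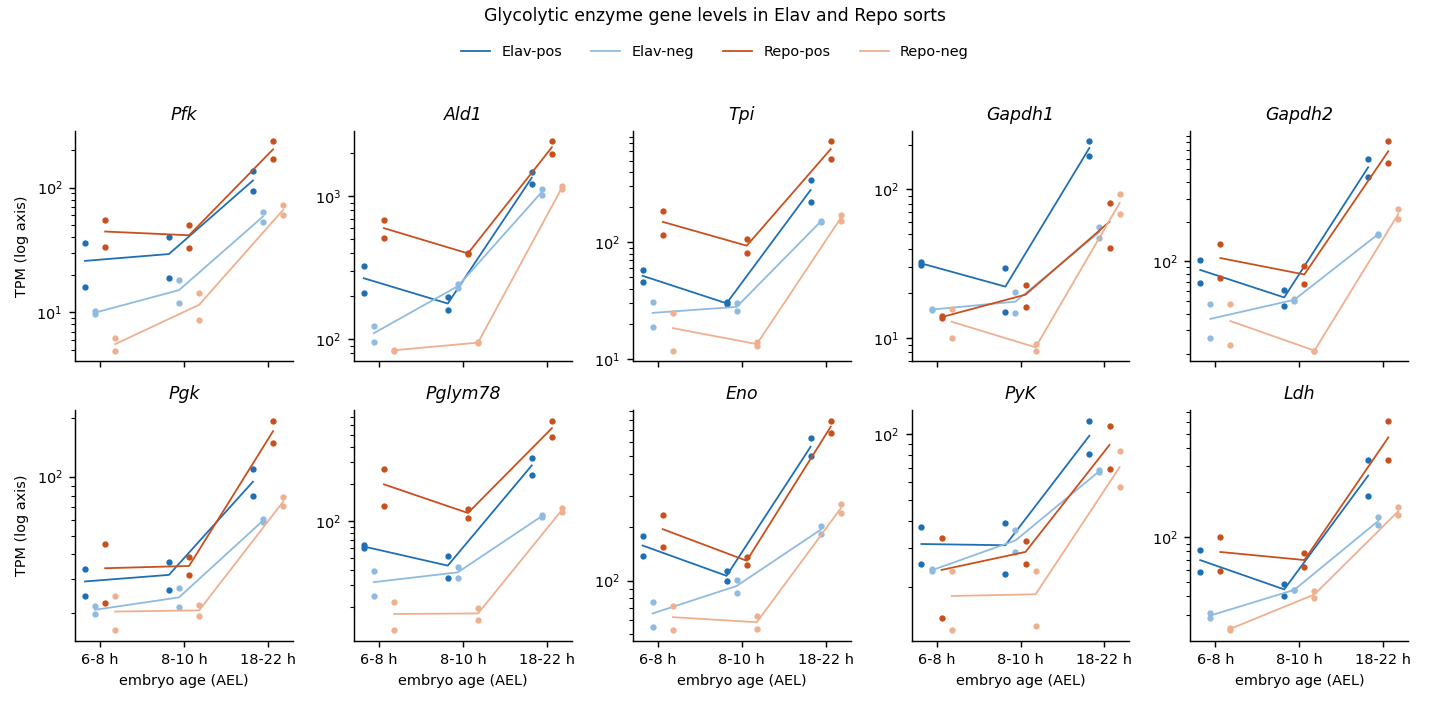
TPM (log axis) of the 10 genes against embryo age in Elav-pos, Elav-neg, Repo-pos and Repo-neg cells. Points are libraries (n = 2 per group) and lines join the group means. Every gene stood higher at 18-22 h than at 8-10 h in all 4 fractions.

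The summed level in TPM (transcript abundance per length, scaled to the same total in each library) of the 10 genes was lowest in 6-8 h Ind-pos cells, at 139 ± 8.49 TPM, and highest in 18-22 h Repo-pos cells, at 5812 ± 1204 TPM (SD, n = 2 each). Next came 18-22 h Elav-pos cells at 3753 ± 752 TPM, 18-22 h Repo-neg cells at 2361 ± 52.2 TPM and 18-22 h Elav-neg cells at 2054 ± 75.3 TPM. The highest earlier groups were 6-8 h Repo-pos cells at 1444 ± 442 TPM and 8-10 h Repo-pos cells at 1013 ± 92.9 TPM. Ald1 had the highest median over the 48 libraries, 193 TPM, and Pfk the lowest, 20.9 TPM. For Ald1, Gapdh2, Pgk and Ldh all 40 earlier libraries lay below all 18-22 h libraries. The share of all genes separated in this way is not given, so statements on overlap here and below only describe the members. The highest group was 18-22 h Repo-pos for 8 genes, with 18-22 h Elav-pos second, and 18-22 h Elav-pos for Gapdh1 and PyK. For PyK the libraries of its 2 highest groups overlapped. Ordering the 24 groups of a gene by level, between 3 (PyK) and 10 (Ald1) of the 23 neighbouring pairs had libraries that did not overlap.

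Transcripts of all 10 enzymes were called higher at 18-22 h than at 8-10 h in neurons, in glia and in both negative fractions, a call being an adjusted p below 0.05 with an absolute log2 fold change above 1 in edgeR. In Elav-pos cells the log2 fold changes ran from 1.47 (Pgk) to 3.27 (Gapdh1) with a median of 2.74, and the adjusted p was at most 0.00426. In Repo-pos cells, which stayed in the same fly line, they ran from 2.21 (PyK) to 3.79 (Gapdh2) with a median of 2.95 and an adjusted p of at most 0.00079. Over all genes tested 5.33% were called higher in Elav-pos cells and 7.84% in Repo-pos cells. The negative fractions changed in the same direction, with medians of 1.78 in Elav-neg and 2.67 in Repo-neg cells, where 6.20% and 10.4% of all genes were called higher. The median change of all genes was 0.03 in Elav-pos, -0.32 in Repo-pos, 0.22 in Elav-neg and 0.11 in Repo-neg cells. In bulk RNA a smaller number of expressing cells and less RNA per cell cannot be told apart.

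The upper steps of the pathway showed the pattern in every library. Pfk, phosphofructokinase, which commits sugar to glycolysis, was at 135 and 93.2 TPM in 18-22 h neurons, against 18.8 and 39.9 TPM in 8-10 h neurons (log2 fold change 2.33 ± 0.34 SE, edgeR adjusted p = 7.07e-05). In glia Pfk was at 236 and 169.9 TPM at 18-22 h, against 32.8 and 50.1 TPM at 8-10 h (2.93 ± 0.35, adjusted p = 4.45e-06). The later libraries lay above the earlier ones without overlap in both cell types. Ald1, the aldolase that cleaves fructose bisphosphate, was at 1490.3 and 1212 TPM in 18-22 h neurons, against 197 and 159.7 TPM in 8-10 h neurons (3.06 ± 0.46). Ald1 in glia reached 2434 and 1977 TPM at 18-22 h, against 403 and 396 TPM at 8-10 h (3.04 ± 0.46). Tpi, which interconverts the triose phosphates, was at 339.5 and 219.7 TPM in 18-22 h neurons, against 30.7 and 29.4 TPM in 8-10 h neurons (3.20 ± 0.46). Neither gene's ages overlapped. In glia Tpi was at 732 and 520.3 TPM at 18-22 h, against 80.7 and 106 TPM at 8-10 h (3.35 ± 0.46).

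The triose phosphate dehydrogenases, which make the NADH of the pathway, rose in both cell types. Gapdh1 was at 212 and 169 TPM in 18-22 h neurons, against 14.9 and 29.5 TPM in 8-10 h neurons (log2 fold change 3.27 ± 0.36 SE). In glia Gapdh1 was at 80.9 and 40.4 TPM at 18-22 h, against 16.3 and 22.9 TPM at 8-10 h (2.22 ± 0.35). The later libraries were the higher ones throughout. Gapdh2 was at 595 and 440.1 TPM in 18-22 h neurons, against 61.0 and 45.6 TPM in 8-10 h neurons (3.14 ± 0.51). In glia Gapdh2 was at 817 and 553 TPM at 18-22 h, against 67.5 and 91.6 TPM at 8-10 h (3.79 ± 0.52). For both copies the ages did not overlap in either cell type.

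Of the lower steps, Pgk, the phosphoglycerate kinase that yields the first ATP of the pathway, had the smallest change in neurons, with 109 and 79.6 TPM at 18-22 h, against 26.3 and 36.6 TPM at 8-10 h (log2 fold change 1.47 ± 0.34 SE). In glia Pgk was at 193 and 148 TPM at 18-22 h, against 31.3 and 38.6 TPM at 8-10 h (2.52 ± 0.35). Pglym78, a phosphoglycerate mutase, changed by 2.79 ± 0.41 in neurons and 2.88 ± 0.41 in glia on the log2 scale. Eno, enolase, was at 631 and 499 TPM in 18-22 h neurons, against 113 and 99.7 TPM in 8-10 h neurons (2.32 ± 0.45), and changed by 2.97 ± 0.46 in glia. The ages did not overlap for any of these genes. PyK, pyruvate kinase, had the smallest change in glia, at 109 and 69.0 TPM at 18-22 h, against 25.3 and 32.5 TPM at 8-10 h (2.21 ± 0.44). Ldh, lactate dehydrogenase, which ends the pathway in lactate, was at 329.5 and 190.3 TPM in 18-22 h neurons, against 40.2 and 48.5 TPM in 8-10 h neurons (2.69 ± 0.40). In glia Ldh was at 611 and 329 TPM at 18-22 h, against 62.4 and 77.6 TPM at 8-10 h (3.35 ± 0.41), again with no overlap.

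**Figure D2:**
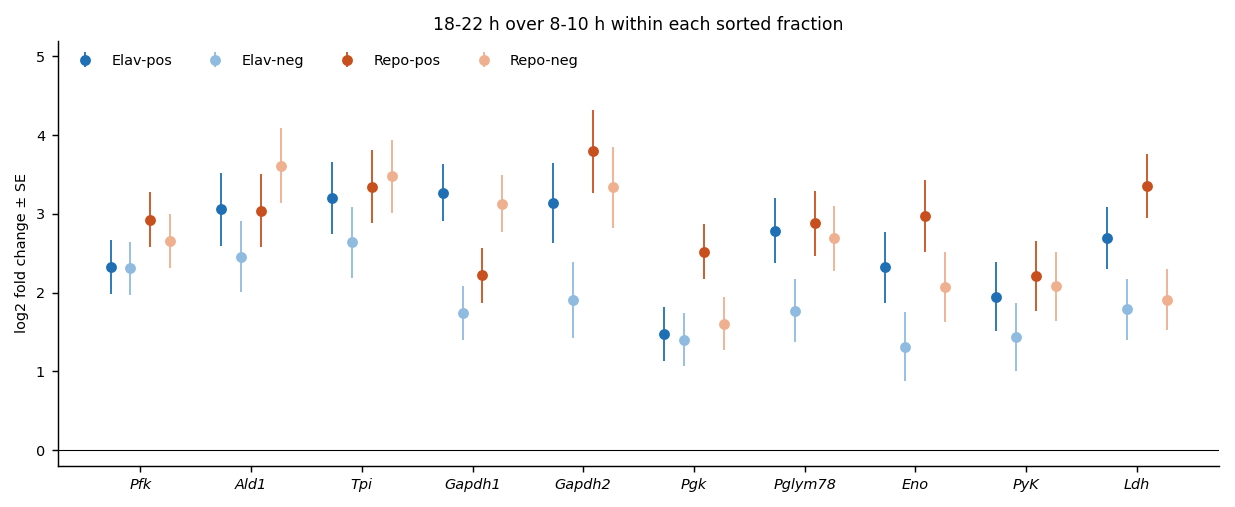
Log2 fold change (± SE from edgeR, n = 2 libraries per group) of each gene at 18-22 h over 8-10 h in Elav-pos, Elav-neg, Repo-pos and Repo-neg cells. All 40 values were above 1 and called, from 1.31 for Eno in Elav-neg cells to 3.79 for Gapdh2 in Repo-pos cells.

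The size of the rise was not shown to differ between neurons and glia. The difference of the age changes, Elav-pos minus Repo-pos, ran from -1.05 (Pgk) to 1.05 (Gapdh1), and edgeR called 0 of 10 genes (0.228% of all genes, 2 of the 10 at an unadjusted p below 0.05, 0 by DESeq2 and 1 by limma). The SE of these differences was 0.46 to 0.66. The rise in Elav-pos over that in Elav-neg cells and in Repo-pos over that in Repo-neg cells also gave 0 called genes, with 0.514% and 0.321% of all genes called, 1 gene at an unadjusted p below 0.05 in each, 1 by DESeq2 in each and 3 and 2 by limma.

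Markers of other tissues moved with age in the same fractions. Muscle markers were called higher at 18-22 h in both positive fractions for 10 of 11 genes. Their summed level was 1116 to 1725 TPM in 18-22 h Elav-pos cells, against 293 to 382 TPM in 8-10 h Elav-pos cells, and 1218 to 2024 TPM in 18-22 h Repo-pos cells, against 320.3 to 360 TPM in 8-10 h Repo-pos cells. All 11 muscle markers were at 1 TPM or more in both libraries of these groups. In the negative fractions of 18-22 h the muscle sum was 5145 to 5254 TPM in Elav-neg and 4909 to 6163 TPM in Repo-neg cells, with glycolytic sums below those of the positive fractions of the same sort. Of 7 fat body and hemocyte markers Col4a1 and vkg were called higher in each positive fraction. The part of these markers in the rise was not tested. The Elav-neg result rested on single libraries: without replicate 1 of the 18-22 h Elav-neg cells 3 of 10 genes were called, and without replicate 1 or replicate 2 of the 8-10 h Elav-neg cells 8 or 6. The count in both Repo fractions stayed at 10 and that in Elav-pos cells at 9 or 10 whichever library was left out. With only the 4 compared libraries in the fit, 0 genes were called in Elav-pos and in Elav-neg cells and 10 in each Repo fraction. The edgeR adjusted p of the members in this fit was 0.102 to 0.224 in Elav-pos and 0.34 to 0.946 in Elav-neg cells. Over the 11 alternative settings their log2 fold changes stayed at or above 1.19 (Pgk) in Elav-pos and 1.04 (PyK) in Elav-neg cells. The share of all genes called in this fit is not given here.

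Between 8-10 h and 6-8 h edgeR called none of the 10 genes in any fraction. In Elav-pos cells the median was -1.04, with 6 genes at an unadjusted p below 0.05, 0 called by DESeq2 and by limma, and 0.0234% of all genes called in either direction. In Repo-pos cells the median was -0.76, with 4 genes at an unadjusted p below 0.05, 1 called by DESeq2, 0 by limma and 0.0584% of all genes called. The medians in Elav-neg and Repo-neg cells were 0.19 and -0.66, with 0 and 3 genes at an unadjusted p below 0.05, 0 and 1 called by DESeq2, 1 and 0 by limma, and 1.15% and 0.257% of all genes called.

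At 6-8 h against 4-6 h, Tpi, Gapdh1, Gapdh2 and PyK were called lower in Ind-neg cells, where 1.11% of all genes were called lower. Gapdh1 had the largest change there, with 10.7 and 9.25 TPM at 6-8 h, against 46.9 and 51.1 TPM at 4-6 h (log2 fold change -2.55 ± 0.35 SE, edgeR adjusted p = 0.000268). Only the Gapdh1 call held whichever library was left out, and the count was 1 without replicate 2 of the 4-6 h or either replicate of the 6-8 h Ind-neg cells. In the other 5 fractions edgeR called no gene, with medians from -1.24 (Vnd-neg) to -0.12 (Pros-neg). In Ind-pos, Vnd-pos, Vnd-neg, Pros-pos and Pros-neg cells, in this order, 6, 7, 8, 0 and 1 genes were at an unadjusted p below 0.05, DESeq2 called 5, 1, 2, 0 and 0, limma called 3, 1, 2, 0 and 0, and 0.222%, 0.00584%, 0.0234%, 0.0117% and 0.00584% of all genes were called.

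Neurons and glia differed in some of the enzymes. In Elav-pos against Repo-pos cells, Gapdh1 was called higher and Tpi and Pglym78 lower at 6-8 h, Tpi and Pglym78 lower at 8-10 h, and Gapdh1 higher and Pfk, Tpi, Pgk and Pglym78 lower at 18-22 h. The median over the 10 genes was -0.13 at 6-8 h, -0.29 at 8-10 h and -0.95 at 18-22 h, against medians of 0.04, -0.21 and 0.20 over all genes (-0.14, -0.28 and 0.29 with median-of-ratios scaling). The share of all genes called was 7.80% higher and 3.91% lower at 6-8 h, 4.51% and 2.37% at 8-10 h, and 6.06% and 6.20% at 18-22 h. The 8-10 h sorts came from different fly lines, so that cell type and line cannot be told apart there. At 6-8 h replicate 2 of the Elav-pos cells also came from another line than the Repo-pos cells. Between Elav-neg and Repo-neg cells edgeR called 0 of 10 genes at each age, with 0.00584%, 0.807% and 2.17% of all genes called in either direction. At 8-10 h, 6 of the 10 were at an unadjusted p below 0.05 there, DESeq2 called 2 and limma 4, and all 10 values were above 0, while at 6-8 h and 18-22 h no gene passed any of the 3.

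**Figure D3:**
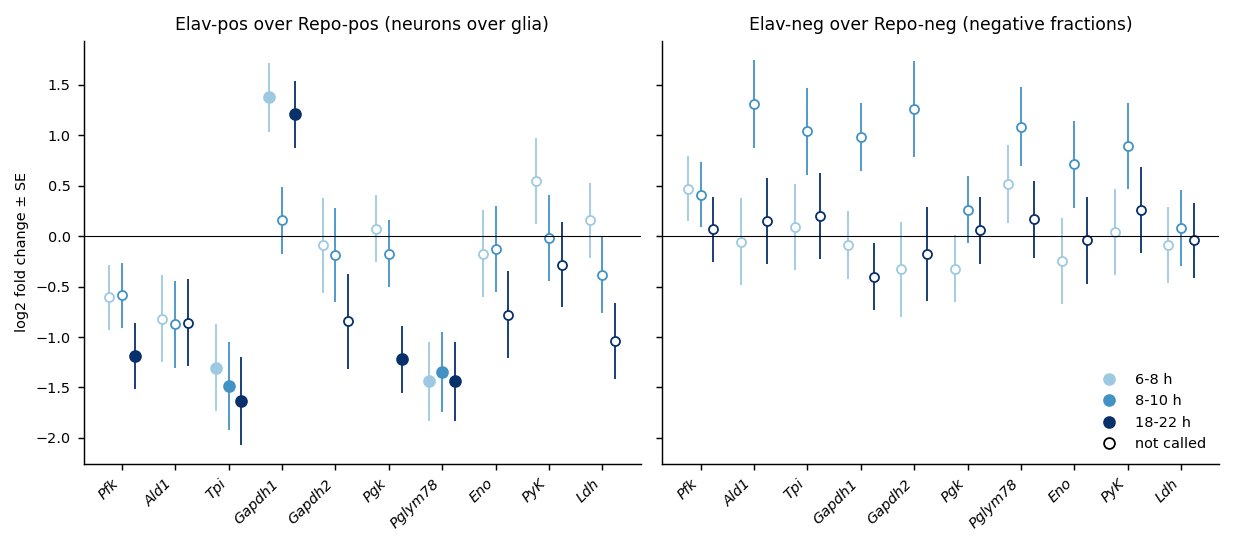
Log2 fold change (± SE from edgeR, n = 2 libraries per group) of each gene in Elav-pos over Repo-pos cells (left) and in Elav-neg over Repo-neg cells (right) at the 3 ages. Filled points were called. Tpi and Pglym78 lay below -1 at each age on the left, Gapdh1 above 1 at 6-8 h and 18-22 h, and no point on the right was called.

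Tpi and Pglym78 were the genes called at all 3 ages. Tpi was at 45.7 and 57.7 TPM in neurons, against 115 and 184 TPM in glia, at 6-8 h (log2 fold change -1.30 ± 0.43 SE, edgeR adjusted p = 0.0438), and at 30.7 and 29.4 TPM in neurons, against 80.7 and 106 TPM in glia, at 8-10 h (-1.49 ± 0.43). At 18-22 h Tpi was at 339.5 and 219.7 TPM in neurons, against 732 and 520.3 TPM in glia (-1.63 ± 0.43, edgeR adjusted p = 0.00952). Every neuronal library was below every glial library at each age. Pglym78 was at 63.7 and 60.4 TPM in neurons, against 133 and 264 TPM in glia, at 6-8 h (-1.44 ± 0.39), and at 34.3 and 52.4 TPM in neurons, against 106 and 126 TPM in glia, at 8-10 h (-1.35 ± 0.39). Pglym78 at 18-22 h was at 328 and 237 TPM in neurons, against 656 and 482 TPM in glia (-1.44 ± 0.39). Again the 2 cell types did not overlap.

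At 18-22 h, where both sorts used the same line, Pfk was at 135 and 93.2 TPM in neurons, against 236 and 169.9 TPM in glia (log2 fold change -1.19 ± 0.33 SE, edgeR adjusted p = 0.0124). Pgk was at 109 and 79.6 TPM in neurons, against 193 and 148 TPM in glia (-1.22 ± 0.34). With limma on log2(TPM + 1) the values were -0.831 for Pfk and -0.855 for Pgk, and neither was called. Ald1, Gapdh2, Eno and Ldh had values between -1.04 and -0.78 and were not called, with Ldh at an adjusted p of 0.069. PyK, the last step before pyruvate, was at 115 and 81.1 TPM in neurons, against 109 and 69.0 TPM in glia, with overlapping libraries (-0.28 ± 0.42). In both cell types all 10 genes were higher in replicate 1 than in replicate 2 at this age.

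Gapdh1 went the other way. It was at 31.0 and 32.5 TPM in neurons, against 13.9 and 13.7 TPM in glia, at 6-8 h (log2 fold change 1.38 ± 0.34 SE, edgeR adjusted p = 0.00547), and at 212 and 169 TPM in neurons, against 80.9 and 40.4 TPM in glia, at 18-22 h (1.20 ± 0.34, adjusted p = 0.014). At 8-10 h, with 14.9 and 29.5 TPM in neurons, against 16.3 and 22.9 TPM in glia, the libraries overlapped. Gapdh2 did not show this, with -0.09 ± 0.47 at 6-8 h and -0.84 ± 0.47 at 18-22 h. With reads of the 2 copies counted as a single gene, the sum was not called at either age. It had 0.137 ± 0.41 at 6-8 h (edgeR adjusted p = 0.929) and -0.545 ± 0.41 at 18-22 h (edgeR adjusted p = 0.566). Gapdh2 had the larger part of the sum, which therefore does not test Gapdh1 alone.

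These calls rested on single libraries. At 18-22 h 1 of 10 genes was called without replicate 1 of the Elav-pos cells, 0 without their replicate 2 and 1 without replicate 1 of the Repo-pos cells, and without their replicate 2 the count was 5, with Gapdh1 lost and Ldh gained. At 8-10 h the count was 3 and 0 without replicates 1 and 2 of the Elav-pos cells and 0 and 1 without replicates 1 and 2 of the Repo-pos cells, and at 6-8 h 1 and 2 without replicates 1 and 2 of the Elav-pos cells and 0 without replicate 2 of the Repo-pos cells. The values of Tpi and Pglym78 stayed negative throughout, between -2.31 and -0.94 over all ages and left-out libraries. Muscle markers gave 0 called genes of 11 between neurons and glia at each age.

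Against their own marker-negative cells, more of the enzymes were called higher in glia than in neurons, a difference in counts that was not itself tested. The baselines were unlike, as Elav-neg cells include glia and Repo-neg cells include neurons. At 18-22 h summed neuron markers were at 1473 to 1789 TPM in Repo-neg and 277 to 360 TPM in Elav-neg cells. Summed glia markers were at 405 to 554 TPM in Elav-neg and 195 to 250 TPM in Repo-neg cells. Repo-pos cells had 5 called genes at 6-8 h (Pfk, Ald1, Tpi, Pglym78 and Ldh), 4 at 8-10 h (Pfk, Ald1, Tpi and Pglym78) and 7 at 18-22 h (all but Ald1, Gapdh1 and PyK), all higher, where 7.36%, 1.80% and 3.22% of all genes were called higher. Pglym78 was higher by 2.75 ± 0.41 at 6-8 h, 2.20 ± 0.40 at 8-10 h and 2.39 ± 0.40 at 18-22 h on the log2 scale (SE, edgeR adjusted p at most 0.000976), the largest value of the 10 genes at 6-8 h and 18-22 h, while Tpi had the largest at 8-10 h (2.28 ± 0.45). Its levels in Repo-neg cells were 13.0 and 22.1 TPM at 6-8 h, 15.8 and 19.7 TPM at 8-10 h and 128 and 118 TPM at 18-22 h, all below those of the Repo-pos libraries given above. Elav-pos cells had 3 called genes at 6-8 h (Pfk, Ald1 and Ldh), 0 at 8-10 h and Gapdh1 alone at 18-22 h. Of all genes 9.34% were called higher at 6-8 h, 13.5% in either direction at 8-10 h and 9.09% higher at 18-22 h.

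Gapdh1 at 18-22 h was at 212 and 169 TPM in Elav-pos cells, against 47.4 and 55.9 TPM in Elav-neg cells (log2 fold change 1.39 ± 0.34 SE), and at 80.9 and 40.4 TPM in Repo-pos cells, against 93.4 and 68.7 TPM in Repo-neg cells (-0.22 ± 0.33). The glial fractions overlapped and the neuronal ones did not. With both Gapdh copies counted as a single gene the glial value was 1.48 ± 0.42 and was called (edgeR adjusted p = 0.0302). Ald1 at 6-8 h was at 212 and 324 TPM in Elav-pos cells, against 96.2 and 125 TPM in Elav-neg cells (1.50 ± 0.44), and at 510.2 and 689.6 TPM in Repo-pos cells, against 84.5 and 83.5 TPM in Repo-neg cells (2.26 ± 0.45). The 6-8 h Elav replicates were paired by fly line, and with the replicate block 5 genes were called there, Gapdh2 (1.21 ± 0.34) and Eno (1.09 ± 0.33) in addition. At 8-10 h in the Elav sort no gene passed by edgeR, DESeq2 or limma, and none had an unadjusted p below 0.05.

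Leaving out libraries changed these counts. At 18-22 h the Elav-pos count was 6 and 0 without replicates 1 and 2 of the Elav-neg cells, whose replicates had the lowest correlation of any pair (r = 0.831 across genes), and the Repo-pos count was 4 and 2 without replicates 1 and 2 of the Repo-neg cells and 2 without replicate 1 of the Repo-pos cells. At 6-8 h the Elav-pos count was 1 and 2 without replicates 1 and 2 of the Elav-neg cells and 0 without replicate 2 of the Elav-pos cells. At 8-10 h the Repo-pos count was 2 without replicate 1 of the Repo-neg cells. The Pfk call in Repo-pos cells at 6-8 h and 18-22 h, and the Pglym78 call at each age, held in all these cases.

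The enrichments themselves were compared as the neuronal minus the glial value, which also takes in the difference between the 2 negative fractions. Pglym78 was lower at 6-8 h (log2 difference -1.95 ± 0.55 SE, edgeR adjusted p = 0.0256), Ald1 (-2.18 ± 0.61), Tpi (-2.52 ± 0.61) and Pglym78 (-2.43 ± 0.56) were lower at 8-10 h, and at 18-22 h Tpi was lower (-1.83 ± 0.60) and Gapdh1 higher (1.61 ± 0.47, adjusted p = 0.0204). Over all genes 2.27% at 6-8 h, 2.15% at 8-10 h and 6.01% at 18-22 h were called lower, and 6.29% were called higher at 18-22 h. At 8-10 h the 2 sorts came from different fly lines. There all 10 genes were above 0 in Elav-neg over Repo-neg cells, with a median of 0.94. Ald1 was not called between Elav-pos and Repo-pos cells at that age. The sum of both Gapdh copies had a difference of -0.315 (edgeR adjusted p = 0.992). With only the compared libraries in the fit none of the 6 differences was called, at edgeR adjusted p values of 0.0561 to 0.959. The 6-8 h Pglym78 call was lost without either replicate of the Elav-pos cells, replicate 2 of the Elav-neg, replicate 1 of the Repo-neg or replicate 2 of the Repo-pos cells. The 8-10 h count was 0 without replicate 2 of the Repo-neg cells and 1 without replicate 2 of the Elav-pos or replicate 1 of the Elav-neg cells. Further, the 18-22 h count was 0 without replicate 2 of the Elav-pos or replicate 1 of the Repo-neg cells, 1 without replicate 1 of the Elav-pos, Elav-neg or Repo-pos or replicate 2 of the Repo-neg cells, 6 without replicate 2 of the Elav-neg cells and 3 without replicate 2 of the Repo-pos cells.

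**Figure D4:**
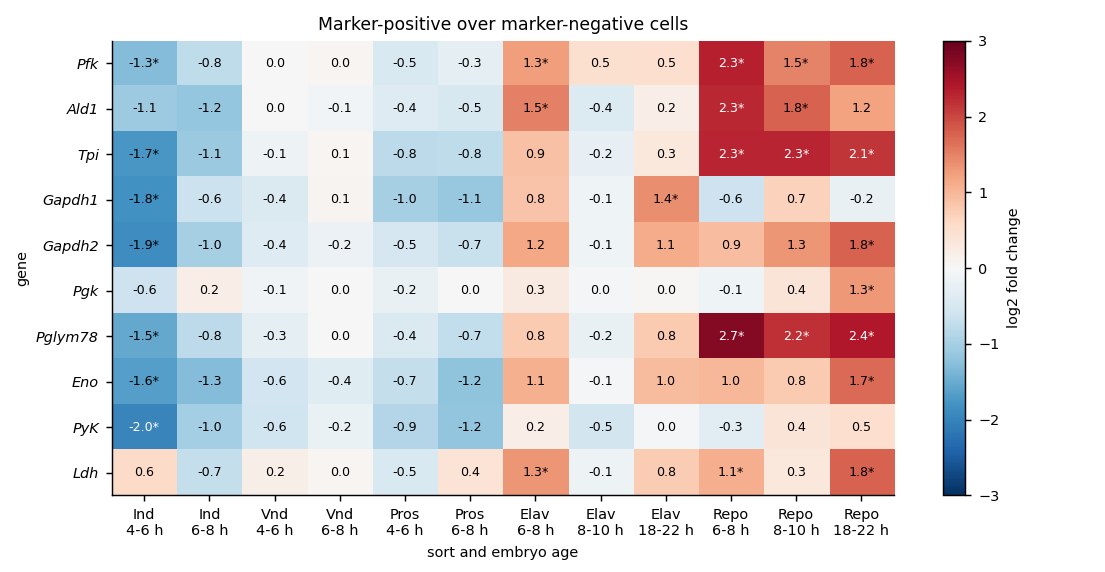
Log2 fold change of each gene in marker-positive over marker-negative cells of the 12 sorts (red higher, blue lower in marker-positive cells, n = 2 libraries per group). Asterisks mark calls. The calls were 7 lower in 4-6 h Ind cells, 3, 0 and 1 higher in Elav cells and 5, 4 and 7 higher in Repo cells from 6-8 h to 18-22 h.

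In the early populations the enzymes were low in the marked cells of the intermediate column. In 4-6 h Ind-pos against Ind-neg cells 7 genes were called lower, all but Ald1, Pgk and Ldh, with a median of -1.59 over the 10 genes, where 3.33% of all genes were called lower. PyK was at 19.2 and 14.0 TPM in Ind-pos cells, against 56.4 and 62.8 TPM in Ind-neg cells (log2 fold change -1.98 ± 0.44 SE, edgeR adjusted p = 0.00474). Gapdh1 was at 17.4 and 12.1 TPM in Ind-pos cells, against 46.9 and 51.1 TPM in Ind-neg cells (-1.81 ± 0.34). Ldh was the exception, with 27.3 and 30.6 TPM in Ind-pos cells, against 21.9 and 15.0 TPM in Ind-neg cells (0.58 ± 0.37, not called). The muscle marker sum was 40.0 to 118 TPM in these Ind-pos cells, against 533 to 835 TPM in these Ind-neg cells, with 10 of the 11 markers at 1 TPM or more in both Ind-pos libraries, and its part in the difference was not tested. The count fell to 0 without replicate 2 and 4 without replicate 1 of the Ind-pos cells, and 2 without replicate 2 of the Ind-neg cells.

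At 6-8 h the Ind-pos median was -0.90 and edgeR called 0 genes (6 at an unadjusted p below 0.05, 3 by DESeq2 and by limma, 2.33% of all genes called in either direction). In Pros-pos cells 0 genes were called at either age, with medians of -0.48 and -0.70, 2 and 3 genes at an unadjusted p below 0.05, 1 and 3 by DESeq2 and by limma, and 5.78% and 3.57% of all genes called. In Vnd-pos cells the medians were -0.21 and 0.002, no gene passed by edgeR, DESeq2 or limma or had an unadjusted p below 0.05, and 0.684% and 0.140% of all genes were called. Levels of Pfk illustrate the spread between sorts, with 2.99 to 6.22 TPM over the 4 Ind-pos libraries, 12.2 to 16.7 TPM over the 4 Pros-pos libraries and 25.6 to 32.4 TPM over the 4 Vnd-pos libraries. The sorts used different fly lines, and sort and line cannot be told apart here.

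Neurons and glia also differed in which annotated transcript of a gene carried the reads. Of 42 transcripts, 26 made up at least 10% of their gene over the Elav-pos and Repo-pos libraries. These shares, that of Gapdh1 in the Gapdh total and the 3 coding classes of Ald1 gave 30 measures, each compared by a two-sided exact permutation test within age (6 libraries a side, 216 arrangements, smallest p 0.00926). The measures were chosen after the data were seen, and shares of a gene depend on each other. 7 measures reached the smallest p, with an adjusted p of 0.0397. That adjusted value is set by how many of the 30 measures tie at the smallest p. Passing therefore depended on the ties, some of them between transcripts of the same gene.

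Among the 7 measures that passed adjustment the alternative 3' ends of Ald1 and Ldh showed the widest gaps. Pglym78-RB differed by -43.6 percentage points and did not pass (exact permutation p = 0.0278, adjusted p = 0.0758). Ald1-RB and Ald1-RM share the 1083 coding bases and the 5' end and differ at the 3' end, at 3R position 26254069 and 26254603 (dm6), which leaves 1276 and 742 bases from the stop codon to the end. Ald1-RB made up 29.6%, 40.0% and 49.8% (lowest, median and highest) of Ald1 TPM in Elav-pos libraries, against 5.57%, 9.32% and 12.3% in Repo-pos libraries. Ald1-RM made up 19.4%, 24.3% and 35.0% in Elav-pos libraries, against 51.4%, 60.4% and 63.6% in Repo-pos libraries. No neuronal library overlapped a glial one, and the mean differences were 30.7 and -33.8 percentage points. The Ald1-RB share was 2.62% to 5.88% in Elav-neg and 5.97% to 22.5% in Repo-neg libraries. These negative fractions also differed, by -6.26 percentage points (exact permutation p = 0.00926, unadjusted), opposite in sign to the positive ones.

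Ldh-RB ends at 3L position 6259105 and Ldh-RA at 6259492, with 644 and 257 bases after the same 996 coding bases. The Ldh-RB share was 38.4%, 75.8% and 85.5% (lowest, median and highest) in Elav-pos libraries, against 7.48%, 9.85% and 33.4% in Repo-pos libraries. Ldh-RA was listed at 0 in 4 of 6 Elav-pos libraries and made up at most 10.1% there, against 15.8%, 67.7% and 76.2% in Repo-pos libraries. The lowest glial Ldh-RA share and the highest glial Ldh-RB share both belonged to replicate 2 of the 8-10 h Repo-pos cells. That library had the highest level of chemosensory receptor genes (18.8 TPM median), taken as a measure of background. The lowest neuronal Ldh-RB share belonged to replicate 2 of the 8-10 h Elav-pos cells, the library with the next highest level (15.4 TPM). The part of background in these shares was not tested. In Elav-neg minus Repo-neg cells the Ldh-RB share differed by -13.8 percentage points (exact permutation p = 0.0926) and the Ldh-RA share by 13.8 (exact permutation p = 0.324).

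**Figure D5:**
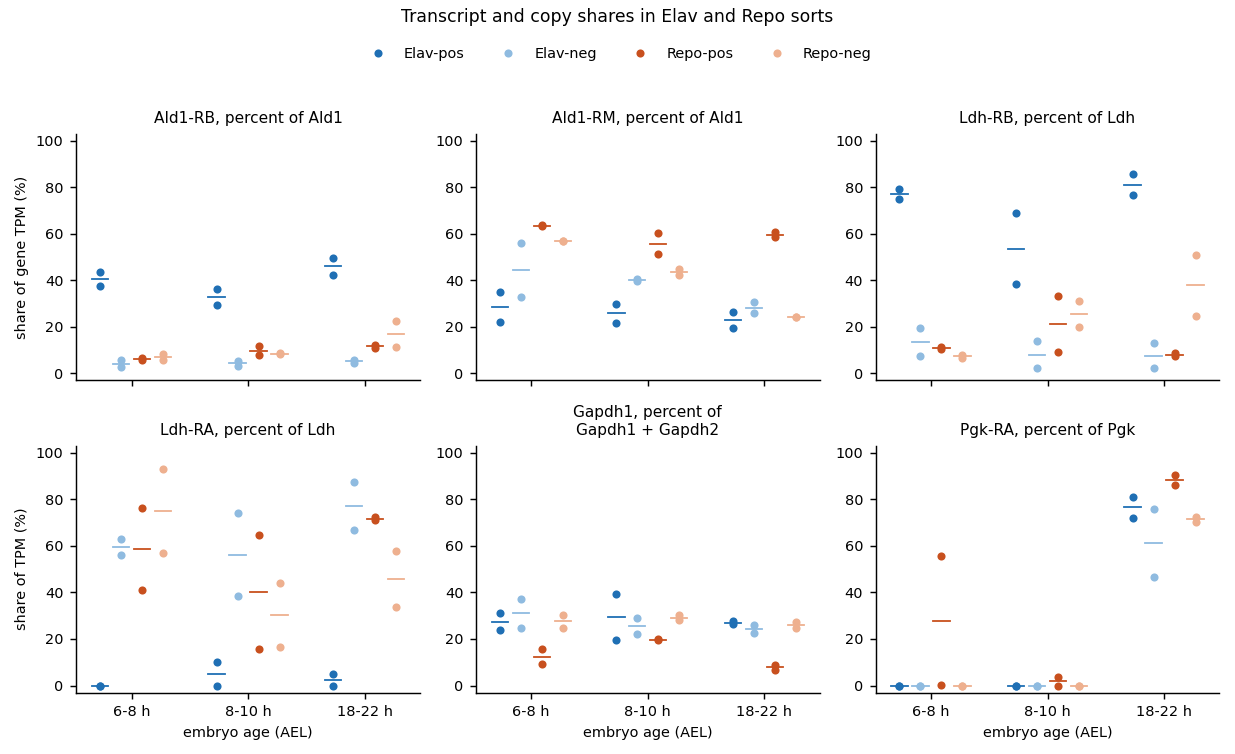
Share (%) of gene TPM of 5 transcripts, and of Gapdh1 in the TPM of both Gapdh genes, against embryo age in Elav-pos, Elav-neg, Repo-pos and Repo-neg libraries (points, with bars at the mean of n = 2). Ald1-RB lay at 29.6% to 49.8% in Elav-pos and 5.57% to 12.3% in Repo-pos libraries, and Pgk-RA at 46.6% to 90.6% in every 18-22 h library.

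The annotated start of Pgk varied with age, which was not tested. Pgk-RA, whose 5' end lies at 2L position 2748487, inside the gene, made up 72.1% to 80.9% of Pgk TPM in 18-22 h neurons and 85.9% to 90.6% in 18-22 h glia. It was listed at 0 in all 4 earlier Elav-pos libraries and was at most 3.82% in 3 of the 4 earlier Repo-pos libraries, the exception being replicate 2 of the 6-8 h Repo-pos cells at 55.6%. The 5 Pgk transcripts share their 1245 coding bases. The neuronal minus the glial Pgk-RA share was -13.8 percentage points on average, and this value rested on the 6-8 h Repo-pos cells, being -23.1 without their replicate 1 and -4.59 without their replicate 2. Pfk-RC, which ends before the more abundant Pfk-RB, had 19.3% of Pfk TPM on average in neurons, against 28.9% in glia.

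Ald1 also has 3 alternative last coding exons. Transcripts with the exon at 3R 26256215 to 26256307 (RH, RJ and RL) made up 2.60% to 8.17% of Ald1 in Elav-pos and 5.39% to 10.2% in Repo-pos libraries, and 48.2% and 48.3% in 18-22 h Elav-neg and 35.6% and 44.6% in 18-22 h Repo-neg libraries. The 18-22 h negative fractions stood above every positive one. Over the 3 ages the share of this class differed by -2.90 percentage points in Elav-pos minus Repo-pos cells. In Elav-neg minus Repo-neg cells it differed by 6.64 percentage points (exact permutation p = 0.00926, unadjusted). Gapdh1 made up 19.6% to 39.2% of the Gapdh total in neurons, against 6.81% to 20.0% in glia, a mean difference of 14.6 points that did not pass adjustment (exact permutation p = 0.0185, adjusted p = 0.0556). All these shares are Salmon's division of reads among overlapping models.

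Other genes of sugar metabolism followed in part. Of 14 further genes of glycolysis and gluconeogenesis, 5 were called higher at 18-22 h over 8-10 h in Elav-pos and 4 in Repo-pos cells, with list medians of 0.25 and 0.26. For this list and those that follow, 5.33% of all genes were called higher with age in Elav-pos and 7.84% in Repo-pos cells. Hex-A, the hexokinase that starts the pathway, rose by log2 fold changes of 2.53 ± 0.50 in neurons and 2.26 ± 0.49 in glia (SE). Pgi, which makes fructose 6-phosphate, rose by 1.28 ± 0.39 in neurons and 2.39 ± 0.40 in glia and was lower in 18-22 h neurons than in glia (-1.37 ± 0.39, edgeR adjusted p = 0.0162). Pgm1, phosphoglucomutase, rose by 1.65 ± 0.39 in neurons and 2.68 ± 0.40 in glia.

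Of 12 genes of sugar supply, 3 were called higher with age in Elav-pos and 6 in Repo-pos cells, and at 18-22 h Treh, Tret1-1, Glys and UGP were lower and Glut1 higher in neurons, where 6.20% of all genes were called lower and 6.06% higher. Glut1, a glucose transporter, was at 692 and 731 TPM in 18-22 h neurons, against 109 and 120.0 TPM in 18-22 h glia (log2 fold change 2.32 ± 0.34 SE, edgeR adjusted p = 1.96e-05). Treh, trehalase, which splits the blood sugar trehalose, was at 22.1 and 15.3 TPM in neurons, against 96.4 and 29.2 TPM in glia (-2.11 ± 0.51). Neither gene's libraries overlapped between the cell types. Glyp, glycogen phosphorylase, rose with age by 2.76 ± 0.48 in neurons and 3.17 ± 0.49 in glia.

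Among 11 genes of pyruvate and lactate fate, 1 (PCB, pyruvate carboxylase) was called higher with age in neurons and 8 in glia, with list medians of 0.42 and 1.51. Of 14 TCA cycle genes 4 were called higher in neurons and 10 in glia, with list medians of 0.77 and 1.50. The counts in neurons and glia were not tested against each other. PCB rose by 1.76 ± 0.41 in neurons and 2.62 ± 0.42 in glia on the log2 scale. At 18-22 h out (outsiders), of the monocarboxylate transporter family, was at 11.8 and 6.16 TPM in neurons, against 48.3 and 35.9 TPM in glia (log2 fold change -2.53 ± 0.30 SE, edgeR adjusted p = 1.17e-06). Pdha, a subunit of pyruvate dehydrogenase, had 0.69 ± 0.38 in neurons, not called, and rose by 1.82 ± 0.39 in glia. Ogdh, of the oxoglutarate dehydrogenase complex, rose by 1.80 ± 0.43 in neurons and 2.89 ± 0.45 in glia. Mdh2, mitochondrial malate dehydrogenase, rose by 2.27 ± 0.43 in neurons and 2.46 ± 0.43 in glia, and ScsbetaA, a succinyl-CoA synthetase subunit, by 1.26 ± 0.40 and 2.36 ± 0.41. Of 6 regulators of glycolysis, sima, the hypoxia-inducible factor alpha subunit, rose in glia (1.80 ± 0.46) and had 0.43 ± 0.45 in neurons, not called. The other regulators, ERR among them, were not called in either age change or in 18-22 h neurons against glia.

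The 5 protein-coding genes most like the mean profile of the 10 enzymes, over 24 group means of log2(TPM + 1) and 8408 candidates, were Glyp (Pearson r = 0.991), Mdh2 (0.972), VhaSFD, a vacuolar ATPase subunit (0.959), Ogdh (0.958) and Ndae1, a sodium-driven anion exchanger (0.954). Among the 10 enzymes the pairwise r ran from 0.714 (Gapdh1 and Ldh) to 0.983 (Tpi and Pglym78). The points share libraries.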

How the data were processed

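Ribosome-depleted, stranded RNA-seq of 48 sorted-cell libraries was analysed from the deposited transcript tables. Per the labels and the study's methods, the authors quantified reads with Salmon 0.8.1 against an RSEM 1.3.0 index of dm6, with bias correction and without pooling replicates. The deposited estimated counts and TPM of 34428 transcripts were summed over 17257 genes, and counts were rounded. The 305 transcripts without a gene (0.241% to 0.502% of reads) were left out. Libraries held 18120862 to 113452420 reads, and 2 libraries a group limit precision.

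Counts were fitted with edgeR 4.0.16 (quasi-likelihood, TMM, filterByExpr, R 4.3.3) over all 48 libraries with 24 group means, 17109 genes tested, and Benjamini-Hochberg adjustment per contrast. Genes were called at an adjusted p under 0.05 where the log2 fold change also exceeded 1 in size. Levels are TPM, and 2 libraries against 2 cannot go below a permutation p of 0.333. Alternatives were DESeq2 1.42.0, limma 3.58.1 on log2(TPM + 1) and log2(TPM + 0.1), median-of-ratios factors, no filter, length-scaled counts, a replicate block, the receptor level as covariate, Gapdh1 and Gapdh2 summed, only the compared libraries, and each library left out with dispersions held. The fits were also run on simulated counts with a smaller dispersion than these data (common dispersion 0.362), which cannot gauge error rates at this spread. The 6-8 h Elav replicates are paired by fly line (correlation of deviations 0.523). Named genes were the 10 members, up to 3 called genes with the largest change from each other list, and the 5 genes of at least 10 TPM most like the members. Members and lists were chosen with earlier results of these data known.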

Additional observations from a re-analysis of the deposited data

Results flagged for a closer look

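The neuronal and the glial enrichment over marker-negative cells differed, by the test of the difference in edgeR, for the following genes. At 6-8 h the difference for Pglym78 was -1.95 on the log2 scale. At 8-10 h, where the sorts came from different fly lines, it was -2.18 for Ald1, -2.52 for Tpi and -2.43 for Pglym78. At 18-22 h it was -1.83 for Tpi and 1.61 for Gapdh1, and the sum of both Gapdh copies had -0.315. Over all genes 2.27% at 6-8 h, 2.15% at 8-10 h and 6.01% at 18-22 h were called lower. At 18-22 h 6.29% were called higher, so that 1 of 10 genes each way was near the share over all genes. With only the compared libraries in the fit none of the 6 was called, and each lost its call without 1 or more single libraries.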

How the results depend on the processing

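Of 210 member comparisons, 87 were called. Under the 11 settings other than leaving out a library, 3 had the opposite sign with a call on either side. All 3 set Gapdh1 at 18-22 h against the sum of Gapdh1 and Gapdh2, which does not test Gapdh1 alone. The sum was -0.545 in neurons over glia (Gapdh1 1.20) and 1.48 in Repo-pos over Repo-neg cells (Gapdh1 -0.22). In the difference of enrichments it was -0.315 (Gapdh1 1.61). Gapdh2 had the larger part of the sum. In 18-22 h Repo-pos cells the means were 685 TPM for Gapdh2 and 60.6 TPM for Gapdh1. In 18-22 h Elav-pos cells they were 518 and 190 TPM. The cause of the changes in count below was not tested, and the share of all genes called moved as well. With median-of-ratios factors, differences of enrichments were called for 9.61%, 8.39% and 16.7% of all genes from 6-8 h to 18-22 h. In the main fit these shares were 7.24%, 4.37% and 12.3%. In the Elav sort 23.6%, 17.5% and 27.6% were called with the receptor covariate (17.0%, 13.5% and 20.8% before). With the replicate block the Elav shares were 18.1%, 14.6% and 20.3%. Other shares are not given here. With only the compared libraries, calls of the age change were 20 of 40, with 0 in Elav-pos and 0 in Elav-neg cells, those of neurons against glia were 0 at 8-10 h and 8 at 18-22 h (2 and 5 before), the differences of enrichments 0 (6 before), Ind 13 (7 before), Pros 3 (0 before) and Elav 0 (4 before). With DESeq2 the counts were 42 for positive against negative cells (27 before), 12 for differences of enrichments, 2 for differences of age changes (0 before), 4 for Pros, 8 for Elav and 2 for the negative fractions at 8-10 h (0 before). With limma on log2(TPM + 1) and log2(TPM + 0.1) they were 45 and 48 for positive against negative cells, 6 and 6 for differences of age changes, 3 and 3 for neurons against glia at 18-22 h, 4 and 4 for Pros, 10 and 11 for Elav, and 4 and 4 for the negative fractions at 8-10 h, with 10 differences of enrichments under the first and 12 Ind calls under the second. Median-of-ratios factors gave 11 differences of enrichments, 3 Pros, 8 Elav and 1 negative-fraction calls, and the receptor covariate 44 positive against negative, 1 difference of age changes, 4 Pros, 10 Elav and 1 negative-fraction calls. The replicate block gave 2 Pros and 9 Elav calls. Replicates deviated together with correlations from -0.552 (18-22 h Elav) to 0.722 (8-10 h Elav). Leaving out the 4 libraries highest in receptor genes, chosen after seeing the data, gave 15 differences of enrichments, 1 call of neurons against glia at 8-10 h, 4 Pros calls and 1 negative-fraction call.

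Leaving out each library in turn gave 5 to 11 calls of neurons against glia in all (0 to 3 at 6-8 h, 0 to 3 at 8-10 h and 0 to 5 at 18-22 h), 33 to 40 of the age change (9 to 10 in Elav-pos, 3 to 10 in Elav-neg and 10 in each Repo fraction), 20 to 32 of positive against negative cells (0 to 7 Ind, 0 Vnd, 0 Pros, 1 to 9 Elav and 11 to 16 Repo), 3 to 10 differences of enrichments, 0 to 2 differences of age changes and 0 in the negative fractions.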
